A study of Oryctolagus cuniculus with 6 samples.

Results

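CYR61 and ANKRD1 are 2 genes known as targets of YAP, and they were followed across scar tissue from 6 rabbits. They were taken as every row of the deposited mRNA table with either symbol, which gave 1 transcript each of the 421 listed mRNAs. CYR61 (also called CCN1) was listed as transcript ENSOCUT00000003903 of gene ENSOCUG00000003905, and ANKRD1 as transcript ENSOCUT00000006899 of gene ENSOCUG00000006901. The animals were female New Zealand White rabbits with 6 full-thickness wounds on the ventral face of each ear. Wounds of 3 rabbits received saline (control). Those of the other 3 received ADSC-Exos (100 µg per 2 ml), the exosomes of adipose-derived stem cells. Hypertrophic scar tissue was taken at day 21 and each library is a separate animal. The series text places the applications in the first 3 days and the sample labels give 21 days, and this difference could not be settled. Whether a library pools several wounds of its rabbit is likewise not stated.

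YAP and its paralog TAZ are transcriptional coactivators that enter the nucleus when cells spread, pull on a stiff matrix or lose Hippo kinase signalling, and there bind TEAD factors on DNA. CYR61 and ANKRD1, with CTGF, are among the genes most often read as their output, although growth factors and other transcription factors also induce both. CYR61 encodes a secreted matricellular protein of the CCN family that binds integrins. In mouse skin wounds it is known to drive myofibroblasts into senescence and to limit fibrosis. ANKRD1 encodes CARP, an ankyrin repeat protein that works as a transcriptional cofactor in the nucleus and binds titin in the sarcomere. It is abundant in heart and is induced in wounded skin and in denervated or stretched muscle. No sequence table accompanied the data, so both are described by name and identifier.

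The authors' table holds mRNAs whose means differ by more than 1 log2 unit between these same 6 libraries at p under 0.05, and no others. That both genes differ between the arms therefore follows from their being in the table and is given as a description. What the table leaves to be described is how the rabbits differ within each arm, how many reads lie behind the values, and what else moved with them. Each library had between 86844 and 224554 reads in these mRNAs, and size factors lay between 0.890 and 1.18. Whole-library totals are unknown. All fold values below come from normalized reads (reads divided by the size factor) or from the deposited scale, log2(normalized reads + 1).

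CYR61, the secreted CCN protein, was read deeply. Control rabbits 1, 2 and 3 had 1896, 3679 and 3752 normalized reads, and ADSC-Exos rabbits 1, 2 and 3 had 3358, 13507 and 12414. ADSC-Exos rabbits 2 and 3 lay far above every control, whereas ADSC-Exos rabbit 1 lay inside the control range, so the arms overlapped. The means were 3109 ± 1051 in control and 9759.9 ± 5571 in ADSC-Exos scars (SD, n = 3 each). On the log2 scale these were 11.54 ± 0.56 and 13.01 ± 1.13, a difference of 1.48 (limma SE 0.69). By normalized reads in the ADSC-Exos arm, CYR61 ranked 3 among the 421 listed mRNAs, without correction for transcript length. Counting error is small at such depth, yet the highest treated rabbit had 4.02 times the normalized reads of the lowest.

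ANKRD1, the nuclear and sarcomeric cofactor, rested on very few reads. There were 2, 0 and 3 reads for controls 1, 2 and 3. ADSC-Exos rabbits 1, 2 and 3 had 5, 18 and 17. All 3 treated rabbits were above all 3 controls, and rabbits 2 and 3 again stood well above rabbit 1. After division by the size factors the means were 1.69 ± 1.69 in control and 13.5 ± 7.41 in ADSC-Exos scars (SD, n = 3 each). The log2 means were 1.19 ± 1.08 and 3.68 ± 0.95, a difference of 2.49 (limma SE 0.88). The 0 reads in control rabbit 2 allow up to 3 reads as a one-sided bound, or 3.69 as the upper end of the two-sided 95% Poisson interval. Without that rabbit the log2 difference was 1.90. The constant added before taking logs also sets this value, which was 3.78 with 0.1 and 0.96 with 10 in place of 1. The separation of the arms rests on 5 normalized reads in ADSC-Exos rabbit 1 (4.97, 95% Poisson interval 1.61 to 11.6) against 3.37 in control rabbit 3 (0.695 to 9.85), and these intervals overlap. Such intervals cover counting error only.

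Arms that do not overlap were common in this selected table: they were found for 53.7% of the 421 listed mRNAs and for 44.2% of the 242 listed as higher. With ANKRD1 separated and CYR61 not, 1 of 2 genes is near that background. Higher means were likewise listed for 57.5% of the mRNAs, so the shared direction of CYR61 and ANKRD1 sets them apart from nothing.

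**Figure D1:**
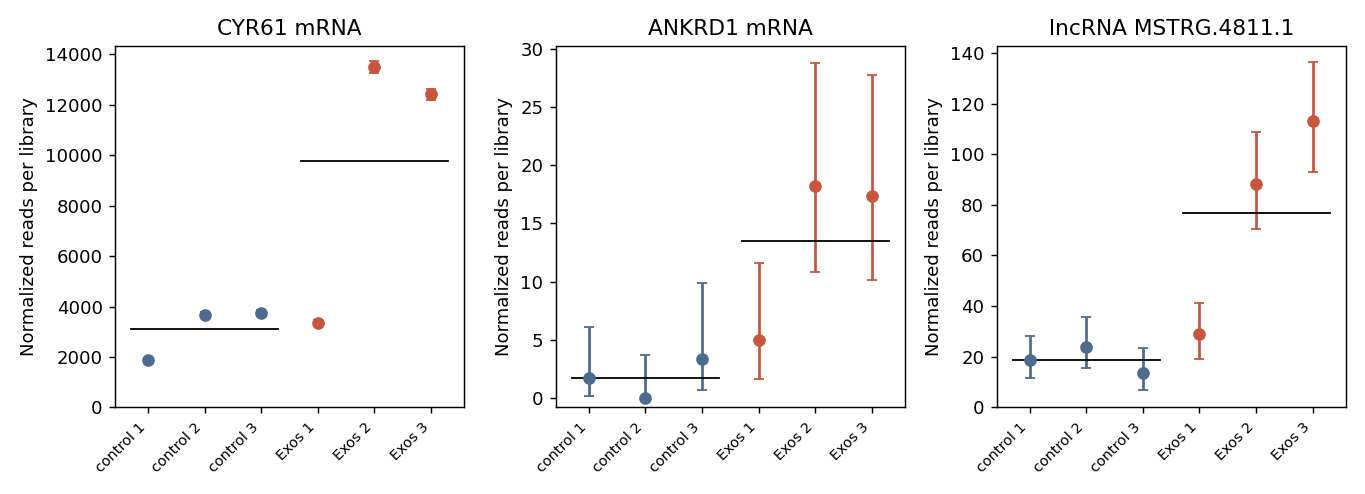
Normalized reads in each rabbit for CYR61, ANKRD1 and the lncRNA MSTRG.4811.1 (3 panels with their own linear vertical axes); points are libraries, bars are 95% Poisson intervals for counting error, and horizontal lines are arm means. ADSC-Exos rabbits 2 and 3 are high in all 3 panels, and ADSC-Exos rabbit 1 is within the control range for CYR61 and just above it for ANKRD1 and the lncRNA.

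In the authors' deposited table neither gene passed an FDR (p adjusted over all transcripts tested) of 0.05. CYR61 had an FDR of 0.0895 and ANKRD1 of 0.225 in that deposited table. The FDR threshold was passed by 11.6% of the listed mRNAs and, upward, by 5.23%. By limma, fitted over all 421 listed mRNAs and adjusted over the 17743 transcripts the authors tested, the adjusted p was 1 for both, and the share of listed mRNAs that passed was 0%. Unlisted transcripts were given the largest possible p there, so this adjustment can be too strict. Adjusted over the 421 selected mRNAs alone, the limma p was 0.111 for CYR61 and 0.0936 for ANKRD1, and 3 of the 421 passed. Before adjustment, 45.8% of the listed mRNAs were under 0.05 by limma, ANKRD1 among them and CYR61 not. The smallest p that an exact two-sided permutation test could reach for 1 gene in this design of 3 against 3 is 0.1.

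The treated rabbits differed among themselves, and CYR61 and ANKRD1 differed in where rabbit 1 lay. For CYR61, reads summed over ADSC-Exos rabbits 2 and 3 were 4.30 times the control level per unit of size factor, while rabbit 1 alone was at 1.11 times. For ANKRD1 the same ratios were 10.9 (95% counting interval 4.26 to 35.7) and 3.05 (0.703 to 13.3), so the counts do not separate rabbit 1 from the controls. Measured on the log2 scale from the control mean, rabbit 1 covered 8.35% of the distance of rabbits 2 and 3 for CYR61 and 45.7% for ANKRD1. The median over the 242 mRNAs listed as higher was 21.7%, with quartiles of 0% and 57.9%, so both genes lie within the middle of the table in this respect. Rabbit 1 was the lowest treated library, ties included, for 85.5% of those mRNAs, which is the background for each such remark below.

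**Figure D2:**
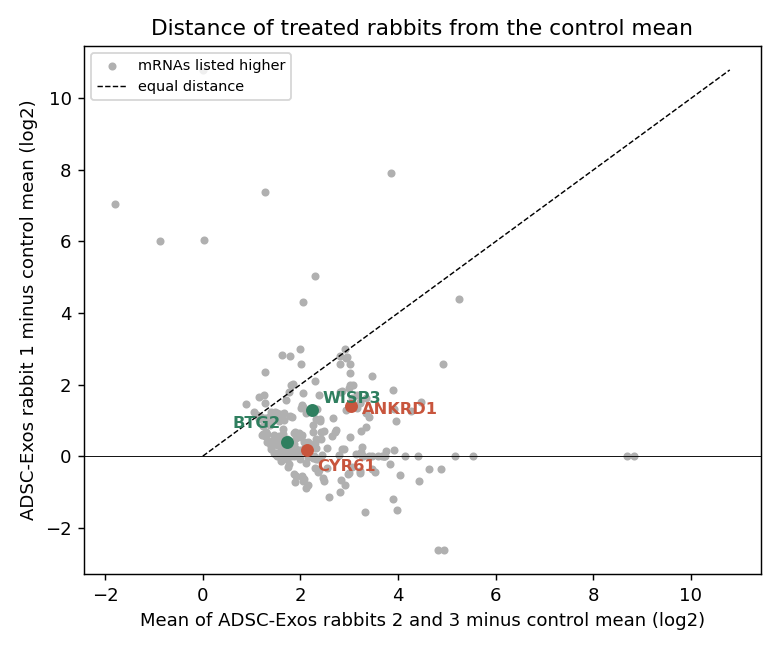
Log2 distance from the control mean in ADSC-Exos rabbit 1 (vertical axis) against the mean of ADSC-Exos rabbits 2 and 3 (horizontal axis) for the 242 mRNAs listed as higher, with CYR61, ANKRD1, WISP3 and BTG2 marked; the dashed line is equal distance. CYR61 lies close to the zero line for rabbit 1 at 0.18, and ANKRD1 at 1.39, both below the dashed line.

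Leaving out rabbits shows where each value comes from. Without ADSC-Exos rabbit 1 the log2 difference was 2.12 for CYR61 and 3.05 for ANKRD1, and the limma p adjusted over 17743 transcripts was 0.459 and 0.859. Without ADSC-Exos rabbit 2 the differences were 1.12 and 2.20, and without ADSC-Exos rabbit 3 they were 1.18 and 2.24. Each stayed above zero, which the selection on these same libraries favours. Neither gene passed the adjusted threshold with any one rabbit left out.

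**Figure D3:**
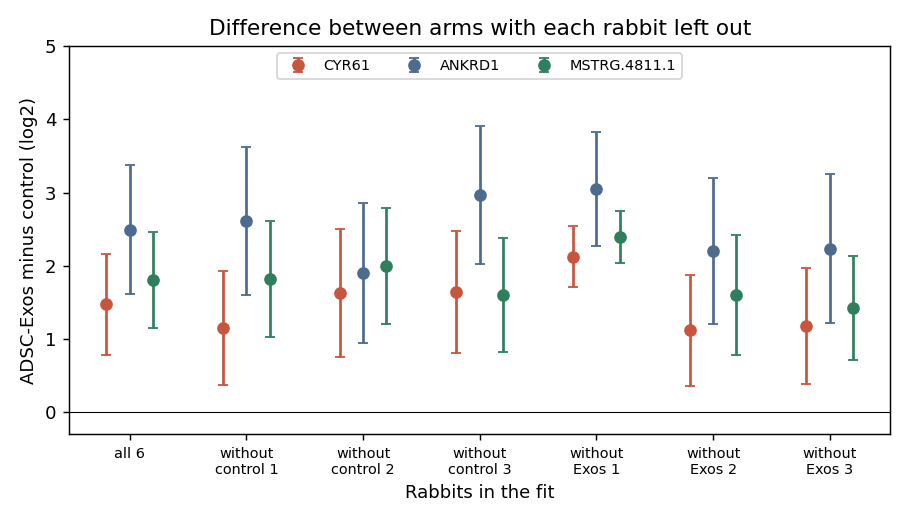
Log2 difference between the arms (points) with its limma SE (bars) for CYR61, ANKRD1 and MSTRG.4811.1, with all 6 rabbits and with each left out in turn. All 3 differences are largest without ADSC-Exos rabbit 1, at 2.12, 3.05 and 2.39.

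Set against each other within a rabbit, ANKRD1 and CYR61 reads gave ratios with wide counting error. ANKRD1 had 1.48, 1.35 and 1.40 reads for every 1000 reads of CYR61 in ADSC-Exos rabbits 1, 2 and 3, and 0.891, 0 and 0.898 in control rabbits 1, 2 and 3. The 95% Poisson intervals were 0.480 to 3.45, 0.799 to 2.13 and 0.813 to 2.24 in the treated rabbits and 0.108 to 3.22, 0 to 1.00 and 0.185 to 2.63 in the controls. They overlap between the arms, and the treated values lay closer together than this error allows to be read. The log2 difference CYR61 minus ANKRD1 was 10.35 ± 1.30 in control and 9.33 ± 0.17 in ADSC-Exos scars (SD, n = 3 each). The arms (ADSC-Exos minus control) differed by -1.02 in this measure, or by -0.27 without control rabbit 2, and this was not tested. These ratios are not corrected for transcript length.

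A long noncoding transcript beside CYR61 was also highest in ADSC-Exos rabbits 2 and 3. MSTRG.4811.1, a predicted lncRNA, was the 1 listed lncRNA of 133 that the authors' annotation places within 3 kb of either gene, here the CYR61 transcript. Controls 1, 2 and 3 gave 22, 24 and 12 of its reads. The treated rabbits gave 29, 87 and 111 in the same numbering. The arms did not overlap, as for 33.1% of listed lncRNAs, and rabbit 1 was again the lowest treated value. The order of the controls, and of treated rabbits 2 and 3, was not that of CYR61. Its log2 means were 4.26 ± 0.39 and 6.07 ± 1.03 (SD, n = 3 each), a difference of 1.81 (limma SE 0.66).

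In the authors' deposited table MSTRG.4811.1 had an FDR of 0.0572 and so missed the threshold, which 32.3% of the listed lncRNAs passed. Its reads came to between 0.359% and 0.980% of the CYR61 reads in each library, with 0.664% ± 0.31 in control and 0.807% ± 0.14 in ADSC-Exos scars (SD, n = 3 each). The shares overlapped between the arms. The strand setting of the counting is not stated, so reads of the mRNA and of an adjoining or overlapping transcript cannot be told apart. No circRNA of CYR61 or ANKRD1 was among the 1694 listed (0 circRNAs).

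Neighbouring genes were looked up in the RefSeq annotation of rabbit (assembly mOryCun1.1). Among the 10 protein-coding neighbours of CYR61, 5 on each side, CLCA2, a chloride channel accessory gene of stratified epithelium, was listed. Its log2 means were 8.71 ± 0.26 without and 9.85 ± 0.82 with ADSC-Exos (SD, n = 3 each), with an FDR of 0.0897 in the authors' deposited table. By symbol, the adjacent genes ZNHIT6 and DDAH1 were not found among the selected mRNAs, and 0 of the 10 neighbours of ANKRD1 were. Some neighbours of ANKRD1 have only a LOC identifier, and 100 of the 421 listed mRNAs have no symbol, so a match could be missed. The mRNA and lncRNA tables together list 3.12% of the transcripts the authors tested, so nothing is read from the counts of listed neighbours. Levels of these unlisted genes were not analysed here.

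The other genes of the pathway were sought by symbol among the selected mRNAs. Of the 421 listed mRNAs, 100 have no symbol and could match no gene list, here or below. A gene counted as unlisted may therefore be among them. Of 22 YAP and TAZ target genes, 2 were listed, CYR61 and ANKRD1 themselves, both with higher means and neither past the authors' FDR. Of 32 genes of the Hippo pathway and its TEAD factors, 10 receptors of CYR61, 15 mechanosensors and focal adhesion genes and 22 contractile targets of SRF and its cofactors, 0 were listed. CTGF, the CCN gene usually read beside CYR61, was not found by symbol and its level was not analysed here. Of 20 fibrosis and TGF-beta response genes, 2 were listed, NOX4 and CTHRC1, both with higher means and neither past the authors' FDR. NOX4 had 29, 24 and 29 reads in controls 1, 2 and 3 and 18, 70 and 148 in treated rabbits 1, 2 and 3. CTHRC1 had 9, 12 and 1 against 0, 87 and 394. For both, ADSC-Exos rabbit 1 lay below every control. The selection holds 242 higher and 179 lower mRNAs, and being unlisted does not show that a gene was unchanged. With 3.12% of tested transcripts listed, lists of this size would hold few members in any case.

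Of the 6 CCN family genes, WISP3 (also called CCN6), which shares the domain plan of CYR61, was the other one listed. Controls 1, 2 and 3 gave it 1, 8 and 4 reads. The treated rabbits, in the same numbering, gave it 10, 13 and 30. All treated values were above all control values, but by few reads. Its log2 difference was 1.91 (limma SE 0.82), 1.27 without control rabbit 1, and its FDR in the authors' deposited table was 0.474. It was also the only other listed mRNA annotated with insulin-like growth factor binding, a term CYR61 carries. For extracellular matrix, also looked up for CYR61, 8 other listed mRNAs were found, 2 with higher and 6 with lower means. Among all listed mRNAs 57.5% had higher means. For integrin binding 0 others were found.

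CYR61 is also an immediate early gene, induced within minutes of a stimulus without new protein synthesis. Of 28 such genes, BTG2, an antiproliferative gene induced by p53 and by growth factors, was the other one listed. Its reads numbered 890, 1685 and 1921 across controls 1, 2 and 3. With ADSC-Exos they numbered 1842, 4957 and 4184. As for CYR61, control rabbit 1 was lowest, ADSC-Exos rabbit 1 lay within the control range, and rabbits 2 and 3 were high. The log2 difference was 1.28 (limma SE 0.64), 0.83 without control rabbit 1, with an FDR of 0.246 in the authors' deposited table.

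Because ANKRD1 is abundant in heart and is induced in denervated or stretched muscle, muscle markers were set beside it. Of 28 skeletal and cardiac muscle markers 5 were listed, 4 with lower and 1 with higher means in ADSC-Exos scars. The authors' FDR threshold was passed by 3 of the 5, against 11.6% of all listed mRNAs. MYH1, a fast myosin heavy chain, went from 116, 99 and 2 reads across controls 1, 2 and 3 to 4, 3 and 3 across treated rabbits 1, 2 and 3. MYL2, the slow and cardiac regulatory light chain, had 7, 18 and 0 reads across the controls and was at 0 in every treated rabbit. For MYH1 and MYL2, control rabbit 3 lay at or below the treated values, so their lower means rest on control rabbits 1 and 2.

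The slow myosin MYH7 was read 43, 148 and 5 times across the controls, against 0, 2 and 5 times across the treated rabbits. For the cardiac actin ACTC1 these were 9, 11 and 47 against 2, 7 and 5. TNNT2, cardiac troponin T, went the way of ANKRD1, with 16, 28 and 28 reads across the controls against 48, 178 and 86 across the treated rabbits. It passed the authors' FDR (0.0464 in the authors' deposited table) and, as for ANKRD1, its lowest treated value was in rabbit 1. Of 6 other listed mRNAs annotated with sarcomere, a term looked up for ANKRD1, 2 had higher and 4 had lower means. Besides TNNT2, LRRC10 was higher, with 4, 3 and 4 reads across the controls against 6, 8 and 37. XIRP2, on no marker list here, was lower, with 19, 51 and 0 against 0, 0 and 2. Normalized reads summed over the 5 markers were 161.4, 303.8 and 92.2 in control rabbits 1, 2 and 3. In ADSC-Exos rabbits 1, 2 and 3 they were 53.7, 192.3 and 100.9, so the sums overlapped. The treated sums were mostly TNNT2, at 47.7, 180.2 and 87.7 normalized reads in ADSC-Exos rabbits 1, 2 and 3. In control rabbits 1, 2 and 3 TNNT2 had 13.5, 28.0 and 31.5. The overlap of the sums therefore does not describe the 4 markers with lower means. The part of the muscle markers in the ANKRD1 result was not tested. In whole tissue, more cells of a type and more RNA per cell cannot be told apart.

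**Figure D4:**
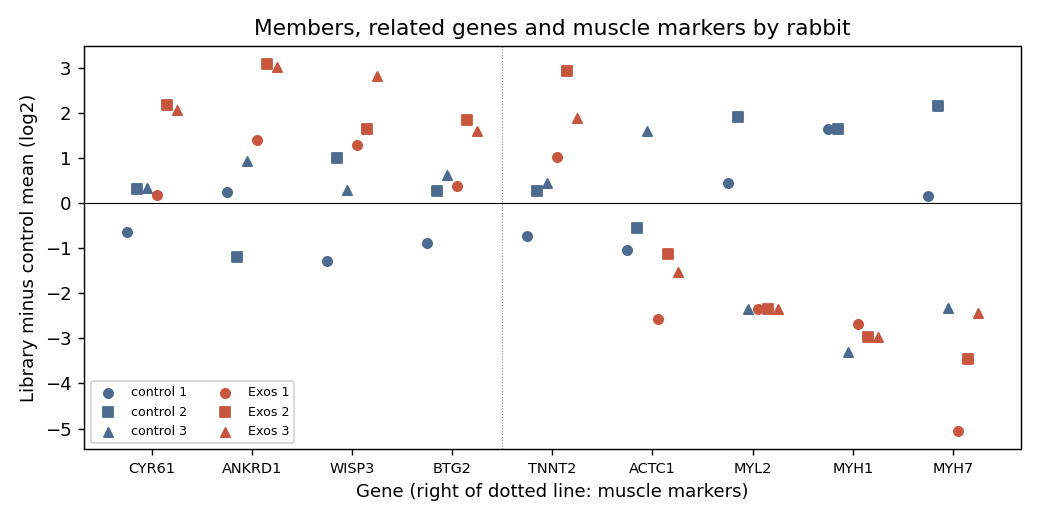
Log2 value of each library minus the control mean for CYR61, ANKRD1, WISP3 and BTG2 and, right of the dotted line, 5 muscle markers; blue marks are control and red marks ADSC-Exos rabbits, with a marker shape for each replicate number. TNNT2 is higher in the red marks like ANKRD1, whereas ACTC1, MYL2, MYH1 and MYH7 are lower or within the control range.

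The listed macrophage and keratinocyte markers were high in the same rabbits as CYR61, the usual pattern among the mRNAs listed as higher. Of 8 macrophage markers, MSR1 and MMP12 were listed. Their summed normalized reads were 86.2 to 195.5 in control rabbits and 127.2, 985.8 and 454.7 in ADSC-Exos rabbits 1, 2 and 3. In ADSC-Exos rabbit 2 this sum was mostly MMP12, at 675.1 of the 985.8. Of 13 keratinocyte markers, TGM5 was listed, at 1028 to 1623 normalized reads in control rabbits and 1271, 6102 and 3186 in ADSC-Exos rabbits 1, 2 and 3. In both lists ADSC-Exos rabbit 1 lay within the control range and rabbits 2 and 3 above it, as for CYR61. None of these 3 mRNAs passed the authors' FDR, which 11.6% of the listed mRNAs did.

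The 12 chondrocyte markers had 3 listed, whose sums were 8541 to 23278 in control and 2907 to 5979 in ADSC-Exos rabbits, and the 8 erythrocyte markers had 3 genes listed, at 9701 to 37337 and 3633 to 6924. Both sums were lower in ADSC-Exos rabbits without overlap between the arms, where 53.7% of single listed mRNAs did not overlap either. The chondrocyte sum is mostly COL10A1, the collagen of hypertrophic cartilage, at 8313 of the 8541 in control rabbit 1. SCRG1 of the same list had a higher mean in ADSC-Exos scars, with 33.0, 34.0 and 36.0 normalized reads in controls 1, 2 and 3 and 47.7, 107.3 and 106.0 in treated rabbits 1, 2 and 3. Of 9 fibroblast, 9 endothelial and 8 smooth muscle and pericyte markers, cells that make CYR61 in skin, 0 were listed, so the labelled scar tissue could not be checked against fibroblast markers. The part of cell composition in the CYR61 and ANKRD1 values was not tested.

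Each gene was last set beside the listed mRNAs with the most similar pattern, by Pearson r over the 6 log2 values, among 282 candidates with a symbol and a mean of at least 10 normalized reads in the higher arm. The 4 most like CYR61 were MSR1, the macrophage scavenger receptor (r 0.988), TRPV5, a calcium channel (r 0.984), PDK4, a kinase that inhibits pyruvate dehydrogenase (r 0.984), and HSD11B1, the enzyme that regenerates active glucocorticoid (r 0.983). The 4 most like ANKRD1 were PLEKHG7 (r 0.983), AFF3 (r 0.973), GPR3, an orphan receptor (r 0.969), and RDH5, a retinol dehydrogenase (r 0.963). Neither gene was among the nearest of the other, with r 0.801 between them, which ranked 156 among the 420 other listed mRNAs for CYR61 and 120 for ANKRD1.

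These likenesses are descriptions. All candidates were selected for a difference between the arms, so high values were to be had by many of them, and 6 libraries in 2 arms carry them. HSD11B1 was read 197, 241 and 265 times across the controls, against 196, 795 and 745 times across the treated rabbits. It shared with CYR61 a rabbit 1 at control level and a rabbit 2 slightly above rabbit 3. PLEKHG7 was read 6, 2 and 12 times against 22, 43 and 46 times, with control rabbit 2 lowest, as for ANKRD1.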

How the data were processed

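Scar RNA from 6 rabbits, 3 per arm, was analysed from the authors' tables. Per the submitters' processing notes, which give no roles, the tools were DESeq2 1.30.1, HTSeq 2.0.3, STAR 2.7.6a, Trimmomatic 0.40 and FastQC 1.0.0. No source used here names the genome build. The labels' protocol describes adaptors for small RNAs. The deposited values are log2; 2 to the value minus 1 gave whole multiples of 1 step for 100% of values per column (tolerance 0.01), so they are log2(reads / size factor + 1). The authors' deposited p-values and FDR come from a test the tables do not name. Ratios of FDR to p gave 17743 transcripts tested, with 53.4% of ratios within 0.0001 of a whole rank.

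Differences were fitted with limma (version 3.58.1, trend and robust; R 4.3.3) over the 421 listed mRNAs or 133 lncRNAs, with Benjamini-Hochberg adjustment over 17743 and unlisted transcripts given a p of 1, which can be too strict. The rows were selected on the same comparison, so these p-values are not independent. The script was tested on simulated data. The recovered reads were put through no count test. Intervals are exact 95% Poisson or conditional binomial (scipy 1.17.1). Genes, lists and tests were chosen with earlier results of these data known. Named genes are the members, listed mRNAs on the lists, the 4 most like each member, and listed lncRNAs or circRNAs at the members; the RefSeq neighbours, shared annotation terms and ratios within a rabbit were added after values were seen.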

Additional observations from a re-analysis of the deposited data

How the results depend on the processing

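The CYR61 and ANKRD1 differences stayed above zero in all 15 alternatives each. Some alternatives change only the test, the filter or the adjustment and return the same difference. The rows were also selected for a difference in these same libraries, so the sign was close to fixed and is no support. By an adjusted p neither passed in any; with the threshold at an unadjusted p under 0.05, ANKRD1 passed (2.49). The ANKRD1 log2 difference was 3.78 with a pseudocount of 0.1 and 0.96 with 10, since a constant weighs on so few reads, while that of CYR61 was 1.48 and 1.47. WISP3, also low, went to 2.29 and 0.91. Without 1 rabbit the differences ran from 1.12 to 2.12 for CYR61 and from 1.90 to 3.05 for ANKRD1, and the difference between arms in CYR61 minus ANKRD1 from -1.46 to -0.27. Quantile normalization of the listed mRNAs gave 1.21 for CYR61. Limma's adjusted mRNA calls were 0. They were 193 at the unadjusted threshold, 3 with adjustment over only the table, and between 0 and 2 with a rabbit left out, where ADSC-Exos rabbit 1 gave the 2. With the replicate block the differences were 1.48 and 2.49 with 0 calls, and unadjusted p of 0.0212 and 0.0409 by limma; deviations from the arm means correlated at -0.025 to 0.014 for rabbits of equal number, which gives no pairing. For 27 other named features, chosen for this after seeing the data, 404 comparisons gave no reversal and 14 passed where the main value did not. The lack of reversals was likewise close to fixed by the selection. The authors' test could not be rerun without a rabbit, as the tables do not name it. Depth limits ANKRD1, not CYR61.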
